A study of Mus musculus with 3 samples.

Results

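The very deep CCGG sites of 3 MethylRAD libraries of mouse embryonic stem cells (ESCs) are the autosomal CCGG positions with at least 150 reads in every library. They were chosen by these read counts alone, and 169 of the 720407 autosomal CCGG sites listed in all 3 libraries met the limit, which is 0.0235%. Of these, 5 lie in a cluster on chromosome 2 that is described apart, and the other 164 are called the very deep sites. Because the counts made the choice, every count of these sites is given as a description, without a test.

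The study asked how DNA methylation changes when ESCs differentiate and how inhibition of the histone demethylase LSD1 alters that change. The undifferentiated library was made from E14Tg2A, an established line, grown with leukemia inhibitory factor (LIF, day 0). The untreated library came from the same line on day 7 after LIF withdrawal and addition of retinoic acid. The treated library came from cells on day 7 of the same protocol that also received 3 mM pargyline, an inhibitor of LSD1. Each condition had 1 library, so no difference between conditions could be set against a spread between replicates. Intervals are 95% intervals over numbers of sites, which cover counting error only and take clustered sites as independent. PCR copies of a fragment were not separated.

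In MethylRAD, the enzyme FspEI cuts on both sides of a methylated cytosine and releases a short fragment, taken here as the 32 bp centred on the motif. The read count of a CCGG site therefore increases with its methylation. Where a sequence is present many times in a genome, fragments of all its methylated copies can be read. Satellite DNA, ribosomal RNA genes, segmental duplications and transposable elements are such sequences in the mouse, and the genome assembly holds only some of their copies. How many copies of each fragment the E14Tg2A genome carries was not measured here.

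The undifferentiated library had 31177503 reads at 847123 autosomal CCGG sites, with a median of 27 reads. The untreated library had 36142191 reads at 859384 sites and a median of 30. The treated library had 25399990 reads at 869245 sites and a median of 23, and so was the shallowest at CCGG sites. At least 150 reads were found at 2602 autosomal CCGG sites of the undifferentiated, 4539 of the untreated and 289 of the treated library. A further 712 sites reached the limit in the undifferentiated and untreated libraries but not in the treated one, so the treated library did most to set the selection. The limit was passed at 3560 sites in the untreated library alone, at 1717 in the undifferentiated library alone and at 18 in the treated library alone. Both day 7 libraries, but not the undifferentiated one, passed it at 98 sites, and the undifferentiated and treated libraries alone passed it at 4.

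Just inside the limit, 25 of the sites had a lowest count of 150 to 159, and just outside it, 17 sites had a lowest count of 140 to 149. Exactly 150 reads were the lowest count at 4 sites. One was position 10:22329169, with 169 undifferentiated, 226 untreated and 150 treated reads. Another was 17:27377611, with 213, 349 and 150 reads in the same order, which all counts given in a row keep. On the other side, 1:171516803 had 204, 259 and 149 reads and 6:48756409 had 172, 215 and 149. The values on both sides form 1 continuous range. The 487 sites outside the chromosome 2 cluster with a lowest count of 100 to 149 serve as a second comparison, beside all 720407 sites.

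The very deep sites had a median of 280.5 undifferentiated (range 151 to 10474), 388 untreated (165 to 17068) and 255 treated reads (150 to 8067). All 720407 sites had medians of 31, 37 and 28 reads. Of the reads at sites listed in all 3 libraries, the very deep sites held 0.342%, 0.419% and 0.397% in the same order of libraries. The lowest count was in the treated library at 88 sites, in the undifferentiated library at 75 and in the untreated library at 1. Few sites lay far above the limit. At least 300 reads in every library were found at 51 sites, 500 at 34, 1000 at 14, 2000 at 5 and 5000 at 2.

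The very deep sites were grouped along the chromosomes. Another very deep site lay within 10 kb of 84 of them (51.2%, Wilson interval 43.6 to 58.8%), against 15.0% of the 487 sites with 100 to 149 reads for their own kind. These 84 sites formed 23 clusters, and 80 sites stood alone. The median distance between neighbouring very deep sites was 23273 bp, against 1505 bp between neighbouring sites of the whole list. The smallest distance was 117 bp, and 22 neighbours were 33 to 500 bp apart. No pair was within 32 bp, so none of these sites shared a fragment. With neighbours chained at up to 1 Mb, there were 61 loci, and the loci with 5 or more sites held 75 of the 164.

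By chromosome, 30 very deep sites were on chromosome 17 (9.56 per 10000 listed sites), 26 on chromosome 11 (5.34), 20 on chromosome 1 (4.02), 19 on chromosome 4 (3.87), 15 on chromosome 12 (4.73) and 12 on chromosome 13 (3.69). The other chromosomes had at most 8, and chromosomes 8 and 19 had 0. Mouse autosomes have their centromere at the end where numbering starts. Within 5 Mb of the first sequenced base lay 37 very deep sites (22.6%, interval 16.8 to 29.5%), against 3.17% of all sites and 5.13% of the sites with 100 to 149 reads. Counting only the deepest site of each 10 kb cluster, 13 of 103 lay there (12.6%). At the other chromosome end the share was 6.10%, against 4.98% of all sites. The very deep sites were thus denser near the centromeric end than the whole list, and the clusters of chromosome 11 at 3.1 to 3.2 Mb made up 22 of the 37.

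Each site was given 1 location class from GENCODE transcripts, with promoters (within 1 kb of a transcription start site) taken first. Promoters held 34 very deep sites (20.7%, interval 15.2 to 27.6%), against 6.29% of all sites and 10.7% of the sites with 100 to 149 reads. A single cluster of ribosomal RNA on chromosome 17 held 14 of the 34, and without it the share was 20 of 150 (13.3%, interval 8.80 to 19.7%). Introns held 51 very deep sites (31.1%, interval 24.5 to 38.5%), against 44.6% of all sites and 39.4% of the sites with 100 to 149 reads. Distal intergenic regions held 61 (37.2%, interval 30.2 to 44.8%), against 39.4%. Exons held 13 (7.93%) against 7.13%, and 3′ UTRs 5 (3.05%) against 2.04%. The 5′ UTRs and the 300 bp downstream of genes held 0, with a Wilson upper bound of 2.29%. Against the whole list, promoters thus had a larger and introns a smaller share, and the promoter share depended on the 1 cluster.

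In 500 bp windows, 13 very deep sites (7.93%) were in windows of high CpG content, against 0.261% of all sites, and 10 of the 13 were in the ribosomal RNA cluster. Windows of low CpG content held 134 (81.7%), against 93.9%. The fragments themselves had a median GC content of 56.2%, against 59.4% at the sites with 100 to 149 reads and 56.2% at those with 50 to 99. In the reference, the first base of the motif was soft-masked as a repeat at 44 very deep sites (26.8%, interval 20.6 to 34.1%). This was so at 13.3% of all sites and 23.2% of the sites with 100 to 149 reads.

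The sequence around the very deep sites often had close copies elsewhere. The authors kept reads with 1 mapping position, and copies were searched among the CCGG motifs of the chromosomes and of the unlocalized and unplaced contigs. An exact second copy of the 32 bp, with the listed motif read as CCGG, was found for 27 very deep sites (16.5%, interval 11.6 to 22.9%), against 0.0670% of all sites and 1.44% of the sites with 100 to 149 reads. Of the 27, 13 were in the locus 1:85081506-85591911 and 12 in the locus 11:3126033-3199926, so 2 loci held most of them. Counting only the deepest site of each 10 kb cluster, 11 of 103 had an exact copy (10.7%). For each of the 27, the copies were on contigs only, and 0 had an exact copy on a chromosome. Among all 483 sites with an exact copy, 149 had copies on contigs only and 334 had one on a chromosome. Whether the authors mapped to the contigs as well was not tested.

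With 1 mismatch allowed, 69 very deep sites (42.1%) had a copy, against 3.23% of all sites and 21.8% of the sites with 100 to 149 reads. With up to 3 mismatches, 97 had one (59.1%, interval 51.5 to 66.4%), against 9.37% and 33.3%. The share with any copy was thus highest at the very deep sites at each of these tolerances, although 67 of them had no copy within 3 mismatches. At least 100 copies within 3 mismatches were found for 13 (7.93%), against 1.41% of all sites and 8.83% of the sites with 100 to 149 reads. Copy number in the cells and its part in the depth of these sites were not tested.

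Depth extended to the sites nearby. Within 10 kb of the very deep sites, 524 other CCGG sites more than 40 bp from any of them were listed in all 3 libraries, with medians of 43, 58 and 44 reads in the undifferentiated, untreated and treated library. Of these neighbours, 30.0% had at least 50 reads in each library, against 10.2% of all sites under the limit. Around the 67 very deep sites without a copy, 33.3% of 339 neighbours had at least 50 reads in each library. Around the 97 with a copy, 28.7% of 303 neighbours did. These 67 include 11 of the ribosomal RNA sites and sites of the satellite family described with the substitutions, and some neighbours lie near sites of both kinds, so the values do not separate repeats from single sequences. No such neighbour was listed for 11 very deep sites.

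The CCAGG counts of the treated library were a readout that the choice did not use. More than 40 bp from any very deep site but within 10 kb of one, 1028 CCAGG sites had a median of 16 reads, against 10 for all 879963 autosomal CCAGG sites. Only 80 autosomal CCAGG sites of this library had 150 reads or more, and 52 of them were among these neighbours. The larger chromosome 11 cluster held 31 of the 52, the other chromosome 11 cluster 8 and the ribosomal RNA cluster 4. In the undifferentiated library, 92 CCAGG sites had 150 reads or more, of which 14 were near very deep sites, with 10 at the larger chromosome 11 cluster. The undifferentiated and untreated lists carry the same CCAGG count at 264626 of 264694 common sites, so these counts cannot be assigned to 1 library. In the treated library, deep reads at the chromosome 11 and ribosomal RNA clusters, which held most of the 52, were thus not restricted to the CCGG motif. Few other clusters or single sites had any such CCAGG site.

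Ratios between libraries are given as log2 ratios relative to the median ratio of the 720407 sites, which was 0.29 for untreated to undifferentiated, -0.22 for treated to undifferentiated and -0.50 for treated to untreated. The deposited RPM values, which divide by mapped reads, shift every relative ratio by -0.24, -0.62 and -0.37, respectively. A small relative value can therefore change sign with the scale, and a direction is named only where it is the same on the relative, raw count and RPM scales.

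The ribosomal RNA cluster spans 17:39843013-39848711 (5699 bp) and held 14 very deep sites. The annotation places CT010467.1 there, of type rRNA, with the lincRNAs Gm26917, Gm42418 and AY036118 on and around it. Ribosomal RNA genes encode the RNA of the ribosome and are present in tandem arrays in which methylated silent copies and unmethylated active copies coexist. The 14 sites together had 3855 undifferentiated, 10665 untreated and 7123 treated reads. These sums were higher in both day 7 libraries, by log2 ratios of 1.18 and 1.11 (0.94 and 0.49 in RPM). Of the 14, 12 read CCGG in the reference, and these had relative ratios from 0.62 to 2.08 in the untreated library (median 1.47) and from 0.95 to 2.13 in the treated library (median 1.23).

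Among the sites of this cluster, 17:39844547 had 157 undifferentiated, 810 untreated and 360 treated reads. Site 17:39843013 had 259, 1277 and 660 reads, and 17:39844120 had 163, 686 and 470. Site 17:39843310 had 169, 706 and 634 reads, and 17:39846038, the deepest of the cluster in the untreated library, had 402, 1449 and 725. Both day 7 libraries were above the undifferentiated one at each of the 12 sites, and no copy within 1 mismatch was found for any of them. The other two of the 14 sites are CCTGG in the reference and were nearly level in raw counts only. Site 17:39843684 had 284, 288 and 286 reads, with relative ratios of -0.27 and 0.23, and 17:39845769 had 591, 619 and 591 reads, with ratios of -0.22 and 0.22. In RPM, they had 5.57, 3.91 and 4.25, and 11.6, 8.40 and 8.79. Fragments are shown for a pair of each kind, to set these 2 sites beside those that rose. They are on the plus strand of GRCm38, with the 4 listed bases in capitals.
chr17:39844533-39844564: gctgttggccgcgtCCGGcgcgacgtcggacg
chr17:39846024-39846055: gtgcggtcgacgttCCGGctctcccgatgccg
chr17:39843670-39843701: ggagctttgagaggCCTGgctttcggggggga
chr17:39845755-39845786: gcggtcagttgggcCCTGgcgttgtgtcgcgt

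Because 150 reads in the undifferentiated library were required, the very deep sites are the part of this span that was deepest on day 0. The span has 67 reference CCGG motifs, of which 58 were listed in all 3 libraries, and 61 positions in all were listed there as CCGG. These 58 sites had medians of 81 undifferentiated, 383 untreated and 304 treated reads, and sums of 6058, 26870 and 20446. All 58 were higher in both day 7 libraries on each of the 3 scales, although 20 of them have another within 32 bp and can share its fragments. Their median relative ratio was 2.09 in the untreated library (range 0.62 to 4.03) and 2.19 in the treated library (range 0.95 to 5.27). Between the treated and untreated libraries, the median relative ratio was 0.14 and changed sign with the scale.

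The limit of 150 reads was met in both day 7 libraries by 54 sites of the span, of which 40 stayed under it in the undifferentiated library. This short span thus held 40 of the 98 autosomal sites that passed the limit in both day 7 libraries but not on day 0. A ratio at least 2-fold above the median ratio was found at 56 of the 58 sites in the untreated (13.4% of all 720407 sites) and 54 in the treated library (17.9% of all sites). The number of ribosomal RNA genes in each culture was not measured, and its part in these counts was not tested.

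The locus with most very deep sites was at 11:3126033-3199926, with 22 sites in 2 clusters. The first, 11:3126033-3165501, held 14 sites with 21059 undifferentiated, 25567 untreated and 16259 treated reads. It covers the pseudogenes Pisd-ps1 and Gm11400 and part of Sfi1, which encodes a centrin-binding protein of the centrosome. An exact copy on a contig was found for 10 of the 14. The 13 other listed sites of this cluster had medians of 38, 76 and 51 reads, and the 14 very deep ones, which the limit sets apart, 1131.5, 1483.5 and 1018.5. Single sites of this cluster went in opposite directions.

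In Pisd-ps1, 11:3126033 fell on day 7, with 2647 undifferentiated, 1614 untreated and 1095 treated reads. Near the other end, in an intron of Sfi1, 11:3165498 had 182, 866 and 521 reads and rose by relative ratios of 1.96 and 1.74. Less than 500 bp away, 11:3165002 had 3195, 4152 and 2737 reads and was among the most even sites, as its highest scaled count was 1.06 times its lowest. Neighbouring sites of 1 gene thus differed in depth and in their ratios.

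The second cluster, 11:3177811-3199926, held 8 sites with 5072, 7493 and 5775 reads in the undifferentiated, untreated and treated library, in Sfi1, in Drg1, which encodes a GTP-binding protein, and in the antisense gene Gm12735. Its untreated to undifferentiated ratio of sums was above 0 on each scale (0.27 relative, 0.56 in raw counts), but only 0.03 in RPM. Its treated to undifferentiated ratio of sums was 0.41 on the relative scale and -0.21 in RPM, so no direction is given for that comparison. An exact copy was found for 2 of its 8 sites.

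The locus at 1:85081506-85591911 held 14 very deep sites, with 6296 undifferentiated, 8362 untreated and 5621 treated reads. It covers C130026I21Rik, A530032D15Rik, the pseudogene Gm2619 and Sp110, which encodes a nuclear body protein. For 13 of the 14 sites, an exact copy was found on a contig. In its largest cluster, 1:85081506-85099113, 4 sites had 2211, 2827 and 1788 reads. Within it, 1:85091002 had 1180 undifferentiated, 693 untreated and 365 treated reads. With relative ratios of -1.06 and -1.47, this site was among those that fell most, although the sums of the locus hardly moved on the relative scale (0.12 and 0.06).

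On chromosome 4, the locus 145439104-147537519 held 9 very deep sites, with 2384, 2970 and 2303 reads in the undifferentiated, untreated and treated library. It includes the zinc finger protein genes Zfp992 and Zfp982, the long RNA gene Platr16 and several predicted genes, and 0 of the 9 sites had an exact copy. In an intron of Platr16, 4:145439104 had 158 undifferentiated, 166 untreated and 331 treated reads. It was the very deep site with the highest treated to untreated ratio (1.50). On chromosome 17, 6 sites at 6391959-6495453, in and near the lincRNA gene Gm26848 and the pseudogene Tmem181b-ps, had 2217, 2386 and 1316 reads. Summed over these 6 sites, the treated library was lowest on each scale. Its relative ratio of sums was -0.53 to the undifferentiated library and -0.36 to the untreated library. Relative ratios of the single sites ranged from -1.10 to 0.40 and from -0.69 to -0.03 in the same order.

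For some clusters, no close copy was found at a CCGG motif of the assembly. At 1:88254933-88263465, 4 sites had 887 undifferentiated, 1288 untreated and 772 treated reads, with 0 copies within 3 mismatches. They lie in Mroh2a, which encodes a HEAT repeat protein, and in Hjurp, which encodes the chaperone of the centromeric histone. Their single relative ratios were narrow, from 0.16 to 0.30 in the untreated and from -0.06 to 0.08 in the treated library. The 6 other listed sites of this cluster had medians of 127.5, 89 and 74 reads.

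At 11:116755438-116757141, 3 sites without a copy lie in exons of the antisense gene BC018473. They had 1547 undifferentiated, 1235 untreated and 647 treated reads, and all 3 were lower in both day 7 libraries on each scale. One of them, 11:116755438, had 438, 240 and 152 reads, with relative ratios of -1.16 and -1.30. The ratios of sums were -0.61 and -1.04 on the relative scale and -0.86 and -1.66 in RPM. Another site of this locus, 11:116767710 in an exon of the sialyltransferase gene St6galnac1, had 582, 659 and 316 reads. The treated library was thus the lowest at each of the 4 sites.

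At 9:123928179-123936277, 4 sites lie 25850 bp or more from the nearest gene, Ccr1, which encodes a chemokine receptor. They had 2003 undifferentiated, 2310 untreated and 1161 treated reads. Of these, 9:123931155 had 626, 379 and 168 reads, with relative ratios of -1.01 and -1.68, while 9:123928179 had 524, 759 and 445 reads, with ratios of 0.25 and -0.01. The site with the largest decrease of all was 13:119597923, in an intron of the transmembrane protein gene Tmem267, with 1217, 612 and 324 reads and ratios of -1.28 and -1.69. It had no copy within 3 mismatches. Further among the 5 lowest treated to undifferentiated ratios was 7:7368218, in Gm45783, with 393, 350 and 155 reads (-1.12).

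The highest ratio of all was at a single site outside the clusters. Site 15:75085811, which is 6717 bp from Gm28502 and soft-masked, had 1435 undifferentiated, 8351 untreated and 5515 treated reads. Its relative ratios of 2.25 and 2.16 were the highest of the 164. Site 2:90395161, which is 3522 bp from Olfr1274-ps, had 181, 585 and 514 reads, with ratios of 1.40 and 1.73 and 1 copy at 1 mismatch. At both sites, the day 7 libraries lay far above day 0. Their fragments, and that of the site that fell most, are shown with the 4 bases of the motif in capitals (plus strand, GRCm38).
chr15:75085797-75085828: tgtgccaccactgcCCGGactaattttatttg
chr2:90395147-90395178: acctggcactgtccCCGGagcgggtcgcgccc
chr13:119597909-119597940: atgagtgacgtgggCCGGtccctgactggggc

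The deepest of the 164 by the lowest RPM was 4:28176969, with 10474 undifferentiated, 17068 untreated and 7697 treated reads (206, 232 and 114 RPM). It is 144 bp from 4:28176825, which had 161, 454 and 155 reads and a fragment that differs at 3 bases. Nearby motifs of close sequence thus differed widely in depth. Both are distal intergenic, more than 100 kb from the nearest gene, Gm11911. Their fragments are shown for this difference, with the motif in capitals (plus strand, GRCm38).
chr4:28176811-28176842: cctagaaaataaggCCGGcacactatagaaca
chr4:28176955-28176986: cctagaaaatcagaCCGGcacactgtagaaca

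Next in depth was 9:35305464, in an intron of the lincRNA gene Gm33838, with 7963, 8262 and 8067 reads (156, 112 and 120 RPM). Among the 10 deepest sites, 5 lie in the larger chromosome 11 cluster, 11:3165002 among them. In Pisd-ps1, 11:3127395 had 5145 undifferentiated, 4178 untreated and 2352 treated reads. In introns of Sfi1, 11:3153184 had 2712, 3568 and 1952 reads. In its exons, 11:3135684 had 1245, 1895 and 1484 reads and 11:3140153 had 1082, 2677 and 1368. Outside this locus, 10:22142773 in E030030I06Rik had 2883, 4041 and 2603 reads. The first chromosome 11 cluster thus supplied more of the deepest sites than any other.

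Some positions are listed as CCGG although the reference reads another motif. This was so at 22 of the 164 very deep sites (13.4%, interval 9.03 to 19.5%), against 2.37% of all sites and 2.46% of the sites with 100 to 149 reads. The reference read CCTGG at 11 of them (6.71%), against 229 of all 720407 sites (0.0318%) and 0 of the 487. With positions counted from 1 at the first C of the motif and the reference base first, and with the chromosome 2 cluster included, the substitution was T3G at 13 sites. It was T2C at 5 sites, A3G at 4, A2C at 1 and G2C at 1. For 3 of the 22 sites (10:81178151, 11:3151227 and 11:3177811), a contig holds a CCGG motif with the same flanking bases. Whether the reads at the 22 sites come from copies on contigs, from copies that the assembly lacks or from bases that E14Tg2A carries at these positions was not tested.

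The sites with CCTGG in the reference had the most even raw counts. The ratio of the highest to the lowest raw count had a median of 1.10 (range 1.01 to 1.63) over these 11 sites, and it was under 1.1 at 6 of them. It had a median of 1.81 (range 1.10 to 5.82) over the 142 sites with CCGG in the reference, and 1.90 over the other 11. After scaling to the median ratios, the medians were 1.36, 1.49 and 1.61, so most of this difference was in raw counts. The CCTGG counts that the authors deposited were nearly the same in all 3 lists, with equal counts at 265948 of the 266018 autosomal CCTGG sites common to the undifferentiated and untreated lists. Equal counts at CCGG sites made up 2.48% of the same comparison. How much of the level counts at T3G sites comes from reads shared between the lists was not tested, so their evenness cannot be read as stable methylation.

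Most of the T3G sites belonged to 1 sequence family. Among all 169 sites, 8 families, chained through fragments with at most 5 differences from another member, held 27 sites, and the largest had 11 sites on chromosomes 2, 4, 9, 12 and 14, all T3G, with 1 to 7 differences between pairs. The 11 bases ggaCCTGgaat were shared by 9 of them, and these 9 are all the sites among the 720407 with this context. Their fragments had 26 to 31 identical bases of 32 between pairs (median 29). On chromosome 14 the neighbours were 117 bp apart, on chromosome 9, 234 bp, on chromosome 2, 485 bp and on chromosome 4, 67288602 bp. These bases belong to the unit of mouse major satellite DNA, the tandem repeat of pericentromeric chromatin. On the assembled autosomes the 11 bases occur 1866 times, of which 313 are in 100 kb windows with 3 or more, and the densest window has 138, between 3000405 and 3038204 of chromosome 9. So short a sequence can recur outside the satellite, and how many of the 1866 occurrences are satellite was not tested. The 9 fragments are shown because their likeness across chromosomes is the finding (plus strand, GRCm38, listed bases in capitals).
chr2:98666638-98666669: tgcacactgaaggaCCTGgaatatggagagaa
chr2:98667123-98667154: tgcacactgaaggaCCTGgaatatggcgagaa
chr4:3089552-3089583: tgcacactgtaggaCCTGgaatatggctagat
chr4:70378154-70378185: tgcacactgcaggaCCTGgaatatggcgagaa
chr9:35305216-35305247: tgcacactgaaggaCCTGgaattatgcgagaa
chr9:35305450-35305481: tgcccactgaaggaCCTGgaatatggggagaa
chr12:67059277-67059308: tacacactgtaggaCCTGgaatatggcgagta
chr14:19418635-19418666: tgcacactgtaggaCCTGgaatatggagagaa
chr14:19418752-19418783: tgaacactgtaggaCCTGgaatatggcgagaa

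The counts of this family spanned a wide range between sites. Site 4:70378168, in an intron of Cdk5rap2, which encodes a centrosomal protein, had 869 undifferentiated, 932 untreated and 850 treated reads. In an intron of Mdga2, 12:67059291 had 189, 231 and 192 reads. At Gm21738, 14:19418649 had 359, 477 and 349 reads and 14:19418766 had 362, 275 and 280. Of the members without the shared 11 bases, 4:3090330 had 360, 457 and 280 reads and 12:67059877 had 253, 250 and 245. The raw counts of single members thus differed between libraries by up to 1.63-fold. The cluster 4:3089566-3090333, near the start of the chromosome, holds 2 sites of this family and a T2C site, with 922, 968 and 673 reads together. This T2C site, 4:3090150, holds the same shared bases, as ggacCTGGaat, but its listed motif begins at the next base. The comparison of fragments base by base around the motif therefore did not join it to the family.

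A second family joined 3 sites on 3 chromosomes with 1 to 3 differences and very many copies. At 1 mismatch, the assembly held 1932 copies of the fragment of 1:30371791, 4791 of that of 4:106177360 and 1922 of that of 17:22766200, and the last lies in the opposite orientation. Site 4:106177360 had 1770 undifferentiated, 4249 untreated and 2956 treated reads. Site 17:22766200 had 1607, 3104 and 1288 reads, and 1:30371791 had 173, 231 and 170. Positions with this many near copies thus still had uniquely mapped reads. Their fragments are shown for their likeness, with the motif in capitals (plus strand, GRCm38).
chr1:30371777-30371808: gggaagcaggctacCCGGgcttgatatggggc
chr4:106177346-106177377: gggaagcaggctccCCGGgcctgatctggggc
chr17:22766186-22766217: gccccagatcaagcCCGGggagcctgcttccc

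The families of 2 sites were on chromosome 1 (85232554 and 85298585), on chromosome 4 (28176825 and 28176969), on chromosome 5 (15006556 and 15690921, 1 difference), on chromosomes 1 and 12 (1:146104505 and 12:23140319) and on chromosomes 10 and 13 (10:74879371 and 13:12863630). On chromosome 5, 15006556 had 346, 533 and 279 reads and 15690921 had 697, 864 and 406 in the undifferentiated, untreated and treated library. The first was highest in the untreated library on each scale, whereas for the second the highest library depended on the scale.

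Over the 164 sites, the median relative log2 ratio was 0.15 for untreated to undifferentiated (interval 0.09 to 0.28, range -1.28 to 2.25), but it was -0.09 in RPM. For treated to undifferentiated it was 0.18 (0.05 to 0.25, range -1.69 to 2.16), but -0.45 in RPM. For treated to untreated it was -0.12 (-0.20 to -0.05, range -1.05 to 1.50). As a group, the sites thus stayed close to the median ratio of the whole list, and the sign of the first 2 medians depended on the scale. Without the ribosomal RNA cluster, the medians of the 150 sites were 0.12, 0.13 and -0.13.

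The spread between sites is given as a description, since each ratio rests on 1 library per condition. The SD of the relative ratios was 0.65 for untreated to undifferentiated, 0.71 for treated to undifferentiated and 0.38 for treated to untreated, whereas the counts alone give 0.11, 0.12 and 0.11. The sites with 100 to 149 reads had SDs of 0.55, 0.54 and 0.33. The day 7 libraries thus were closer to each other than either was to the undifferentiated library. Across the 164 sites, Spearman's rho of the counts was 0.70, 0.64 and 0.86 in the same order of comparisons. The points share clusters and near copies, and each passed the limit in both libraries, so these are descriptions.

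At least 2-fold above the median ratio were 22 of the 164 sites in the untreated against the undifferentiated library, where 13.4% of all sites were, and 5 were at least 2-fold below it, where 15.6% were. In the treated against the undifferentiated library, 17 were 2-fold above (17.9% of all sites) and 8 below (16.6%). In the treated against the untreated library, 2 were above (9.51% of all sites) and 1 below (5.47%). Nothing is read from these counts against all sites, since the counts chose the sites and shallow sites vary more by counting. Among the 487 sites with 100 to 149 reads, 4.52% were above and 1.64% below in the untreated, and 4.72% and 1.64% in the treated against the undifferentiated library. The ribosomal RNA cluster supplied 10 of the 22 sites above in the untreated and 8 of the 17 above in the treated library.

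A gene lay within 1 kb of 106 of the 164 sites, and 58 had none. These were 67 genes, 30 of them protein-coding, and 30 genes had 2 or more sites. Only 3 sites were more than 100 kb from a gene, and the largest distance was 314931 bp. Sfi1 had most sites (17, with 16435, 23521 and 15975 reads in the undifferentiated, untreated and treated library), followed by Gm26917 (11), C130026I21Rik (7) and Gm2619 (6). Drg1, CT010467.1 and Gm26848 had 5 each, and Gm12735 and Gm42418 had 4. Pisd-ps1, Gm11400, A530032D15Rik, BC018473, AY036118, Gm49692, Mroh2a and Raet1e, which encodes a ligand of a natural killer cell receptor, had 3. Overlapping genes each count the positions that they share, as do Gm26917, CT010467.1, Gm42418 and AY036118 in the ribosomal RNA cluster and Sfi1, Drg1 and Gm12735 on chromosome 11. Many of the genes with most sites were predicted genes, pseudogenes or non-coding, and several of them lie at the same few loci.

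Of the genes with 2 sites, Gm33838, Eef2 and Snord37 had most reads. Eef2 encodes a translation elongation factor, and the small nucleolar RNA gene Snord37 lies within its span. The sites of both genes are the same 2 positions. Site 10:81178151 had 1577, 1263 and 870 reads in the undifferentiated, untreated and treated library, is read as CCGG through A2C and had an exact copy on a contig. Site 10:81178763 had 717, 1067 and 708 reads. These 2 positions of 1 promoter region differed in which of the first 2 libraries was higher.

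Gene lists were compared by the share of sites within 10 kb of a gene of the list. Predicted genes named Gm with a number were near 89 very deep sites (54.3%, interval 46.6 to 61.7%), against 23.6% of all sites. Pseudogenes were near 62 (37.8%, interval 30.7 to 45.4%), against 7.76%. Genes named as Rik clones were near 19 (11.6%) against 6.09%, and ribosomal RNA genes near 14 (8.54%) against 0.288%. The difference in percentage points was thus widest for predicted genes and pseudogenes, whereas the ratio of the shares was largest for ribosomal RNA genes. All 14 sites near ribosomal RNA genes were in the chromosome 17 cluster. They also lie within 10 kb of the predicted gene Gm26917, so the lists overlap, and every site of a cluster is counted.

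Zinc finger genes named Zfp were near 4 sites (2.44%) against 0.961%, genes for small nuclear and nucleolar RNAs near 2 (1.22%) against 2.05%, and microRNA genes near 1 (0.610%) against 2.22%. Olfactory receptor genes were near 1 site (0.610%) against 0.425%, and vomeronasal receptor genes near 1 (0.610%) against 0.198%. Imprinted genes and pluripotency genes were near 0 of the 164, against 0.195% and 0.0680% of all sites, and with so few sites a share of up to 2.29% is within the Wilson interval. No transfer RNA gene is in the annotation used, so that list was near 0 sites. For lists near so few sites of the whole list, nothing is read from these counts.

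The 5 sites of the chromosome 2 cluster lie between 98662793 and 98667140, at the predicted genes Gm10801 and Gm10800, and hold 5.01% (undifferentiated), 5.53% (untreated) and 5.73% (treated) of the reads at sites listed in all 3 libraries. Site 98662793 had 105226 undifferentiated, 153903 untreated and 127367 treated reads. Site 98666261 had 484319, 672396 and 439877. Site 98666502, the deepest, had 16903, 14607 and 11593 RPM. These 3 sites share the 11 bases atgCCGGtttc, differ from each other at 1 to 2 bases, and are shown for that likeness (plus strand, GRCm38, motif in capitals).
chr2:98662779-98662810: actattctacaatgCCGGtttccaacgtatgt
chr2:98666247-98666278: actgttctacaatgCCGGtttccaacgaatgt
chr2:98666488-98666519: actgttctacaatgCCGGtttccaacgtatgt

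The same 11 bases occur at 43 of the 720407 sites, these 3 among them. The other two of the 5 sites are T3G members of the satellite family. Site 98666652 had 2062 undifferentiated, 2634 untreated and 1997 treated reads, and 98667137 had 11053, 11330 and 11437. The relative ratios of the 5 sites had a median of 0.06 in the untreated (range -0.25 to 0.26) and 0.18 in the treated library (range 0.08 to 0.50), which changed sign in RPM. Of 3 further positions of this span listed as CCGG in all 3 libraries, only 98663975 is more than 40 bp from the 5 sites, and it had 27, 870 and 428 reads. The position before it, 98663974, is listed with 1264 undifferentiated and 388 treated reads as CCGG and with 712 untreated reads as CCAGG, so the reads of this place are divided between 2 positions in a different way in each list.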

How the data were processed

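Per the labels, the authors checked reads with FastQC (0.11.3 in the sample records, another version in the paper), mapped them to GRCm38 with Bowtie2 2.3.3, kept uniquely mapped reads and deposited per site a count (reads, not normalized, at least 5) and an RPM value (the count scaled to the mapped reads of the library). The deposited lists of 3 libraries, 1 per condition, were joined on chromosome and position. Rows listed as CCGG on autosomes with a count of at least 150 in each library were taken. Location classes, genes and distances came from GENCODE M21 basic on GRCm38. CpG classes used 500 bp windows with 5 bp of overlap (CpG ratio 0.75 and GC content 55% for high, CpG ratio 0.48 for low). Fragments of 32 bp were read from GRCm38, and copies with up to 3 mismatches were searched at CCGG motifs on both strands. Shares have Wilson intervals and medians have intervals from order statistics. No test across conditions was made.

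Named were the 10 clusters with most sites, the 10 deepest sites, the 20 genes with most sites within 1 kb, the 5 highest and 5 lowest ratios of each day 7 library to the undifferentiated one, and the chromosome 2 sites. Sequence families, the locus view at 1 Mb and single sites outside this rule were chosen after their values were seen. The sites and gene lists (predicted, Rik, ribosomal RNA, small RNA, microRNA, transfer RNA, pseudogene, Zfp, olfactory, vomeronasal, imprinted and pluripotency genes) were chosen with earlier results of these data known. Alternatives were other count limits, scaled limits, reference CCGG only, sex chromosomes, the chromosome 2 cluster included, sites within 32 bp merged, other distances, promoter definitions, scales of the ratio and a shorter fragment. The scripts used numba 0.67.0, SciPy 1.17.1, pandas 2.3.3, numpy 2.4.6 and Python 3.11.15, and the functions were tested on simulated data.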

Additional observations from a re-analysis of the deposited data

How the results depend on the processing

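Of 71 recomputed values, 47 kept their direction and stayed within their interval (for numbers, within 1.5 times), 20 moved and 4 changed sign. Where values moved or changed sign, the cause was not tested. The number of very deep sites (164) was 651 with 100 reads, 51 with 300 reads and 103 with 1 site per 10 kb cluster. The share within 10 kb of another (51.2%) was 29.2% with 100 reads and 59.8% at 25 kb. The promoter share (20.7%) was 13.2% with 100 reads, 31.4% with 300 reads, 36.6% with promoters of 3 kb, 10.4% upstream only, 13.3% without the ribosomal RNA cluster and 12.6% with 1 site per cluster. The distal intergenic share (37.2%) was 19.6% with 300 reads and 45.6% with 1 site per cluster. The share with an exact copy (16.5%) was 5.22% with 100 reads, 31.4% with 300 reads, 32.9% for the central 20 bp and 10.7% with 1 site per cluster. The median log2 ratio of the untreated library (0.15) was 0.05 with 100 reads, 0.44 for raw counts and -0.09 in RPM. That of the treated library (0.18) was -0.01 with 100 reads, 0.02 with scaled limits, -0.05 for raw counts and -0.45 in RPM. The alternatives without the ribosomal RNA cluster and with 1 site per cluster were chosen after seeing the data.

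The limit of 150 reads selects on depth in the shallowest library. With limits of 184, 213 and 150 reads, scaled to the CCGG totals, 128 sites were left. With 1 library per condition, the variation between cultures is unknown. The near copies counted are those in the assembly, and reads of copies missing from it were not separated. Copies were searched at CCGG motifs, so copies that lost the motif were not counted.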

Other observations

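On the sex chromosomes, 4 CCGG sites had at least 150 reads in each library. Site X:75604018 had 210 undifferentiated, 435 untreated and 205 treated reads, X:75673593 had 616, 917 and 679, and X:169986077, in a promoter of Mid1, had 380, 518 and 189. Site Y:90741077 had 204, 358 and 279 reads. All 4 had copies within 3 mismatches and no exact copy.

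In the chromosome 2 cluster, position 98666886 is listed as CCGG with 1106 untreated and 1152 treated reads and as CCTGG with 1076 undifferentiated reads, so it is not among the sites described. One locus of 1 site outside the named clusters, 6:114523294, had 682, 1866 and 1334 reads in the undifferentiated, untreated and treated library, with 57 copies at 1 mismatch, and 2:181916536, without a copy, had 558, 1680 and 1054. Both were higher on day 7 on each scale.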
